A study of Mus musculus with 3 samples.

Results

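The external plexiform layer (EPL) of the mouse main olfactory bulb was compared with the internal granule cell layer (GCL-I), within each of 3 coronal sections profiled with high-density spatial transcriptomics arrays. On such an array each barcoded spot captures poly(A) RNA from a small patch of tissue, which can hold parts of several cells. The members were all spots that the deposited region table names EPL (252949, 202713 and 196010 in sections 1, 2 and 3) or GCL-I (89456, 56040 and 58875), together 856043 of 2250425 annotated spots. Counts were summed per section and layer, which gave 3 EPL sums and 3 GCL-I sums. Each section was one sample, labelled as a replicate, of C57BL/6J main olfactory bulb at 12 weeks of age. The labels name no treatment or genetic change, so both layers share the strain, the age and, within a section, the tissue and the array. Nothing in the labels says that the sections came from separate animals, so p-values measure the spread between these sections, which may be technical.

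Granule cells are inhibitory interneurons without an axon. Their somata fill the granule cell layers, and their apical dendrites run outward into the EPL, where they form reciprocal dendrodendritic synapses with the lateral dendrites of mitral and tufted cells, the excitatory projection neurons of the bulb. The EPL is therefore mostly neuropil, with scattered tufted cells, local interneurons and astrocytes. Most neuronal mRNAs are concentrated around the soma, but some, Camk2a among them, are known to be carried into dendrites. The comparison asks which transcripts differ between a layer of dendrites and synapses and a layer of somata. In such sums, fewer cells of a type and less RNA per cell cannot be told apart.

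The EPL sums held 72694, 182699 and 125299 counts, and the GCL-I sums 51391, 60619 and 46947. Per 100 spots this was 28.7, 90.1 and 63.9 counts in the EPL and 57.4, 108 and 79.7 in the GCL-I, so the soma layer was denser in counts in each section. Values below are counts per 1000000 counts of the sum (CPM), and 3 values in a row are sections 1, 2 and 3. One count was worth 5.47 to 21.3 CPM, which limits the precision of genes at low levels. Section 1 stood apart in both layers: transcripts that resemble mitochondrial RNA took 2.56% of its EPL counts, against 11.6% and 11.9% in sections 2 and 3, and 1.33% of its GCL-I counts, against 4.37% and 4.70%. Part of this contrast is Lars2, a nuclear gene counted among them, at 82.5, 27849 and 21205 CPM in the EPL. No source used here gives how the layers were outlined or whether expression played a part in it. Spots within 5 array positions of another layer made up 18.7% to 22.7% of the EPL and 46.5% to 60.1% of the GCL-I.

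In the EPL, 9 of 10 tested genes of mitral and tufted cells and 17 of 19 of astrocytes were higher than in the GCL-I, while 9 of 14 granule cell and GABA genes were lower. In other groups fewer members passed, among them 6 of 19 microtubule genes that were higher, and 7 of 17 calcium/calmodulin genes and 5 of 15 synaptic vesicle genes that were lower. Of 1520 genes tested, 274 differed at an adjusted p under 0.05 (18.0%), by edgeR's quasi-likelihood test with section as a block and Benjamini-Hochberg adjustment, which is the source of every adjusted p below unless another test is named. There were 159 genes higher in the EPL (10.5%) and 115 lower (7.57%). With library sizes alone in place of TMM scaling, the median log2 difference over all genes moved from 0.01 to -0.21, and the calls became 99 higher and 160 lower, with every one of the 274 genes keeping its sign. Among the 159 genes called higher, 141 were higher in 3 of 3 sections and 75 had no overlap of CPM between layers; over all genes tested these shares were 15.1% and 6.05%. Among the 115 called lower, 112 were lower in 3 of 3 sections and 65 did not overlap, against 30.9% and 9.87% of all genes.

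The number of calls depended on the sections. Without section 1, 349 genes were called, without section 2 100, and without section 3 34, and 26 of the 274 genes kept their call in each of these fits, 22 of them higher and 4 lower in the EPL. DESeq2 called 68 genes, 57 higher and 11 lower. The edgeR fit gave all genes at a given level the same extra spread between sections, so very small p-values of abundant genes rest on that common estimate. The plot of all tested genes shows the calls against the mean level.

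**Figure D1:**
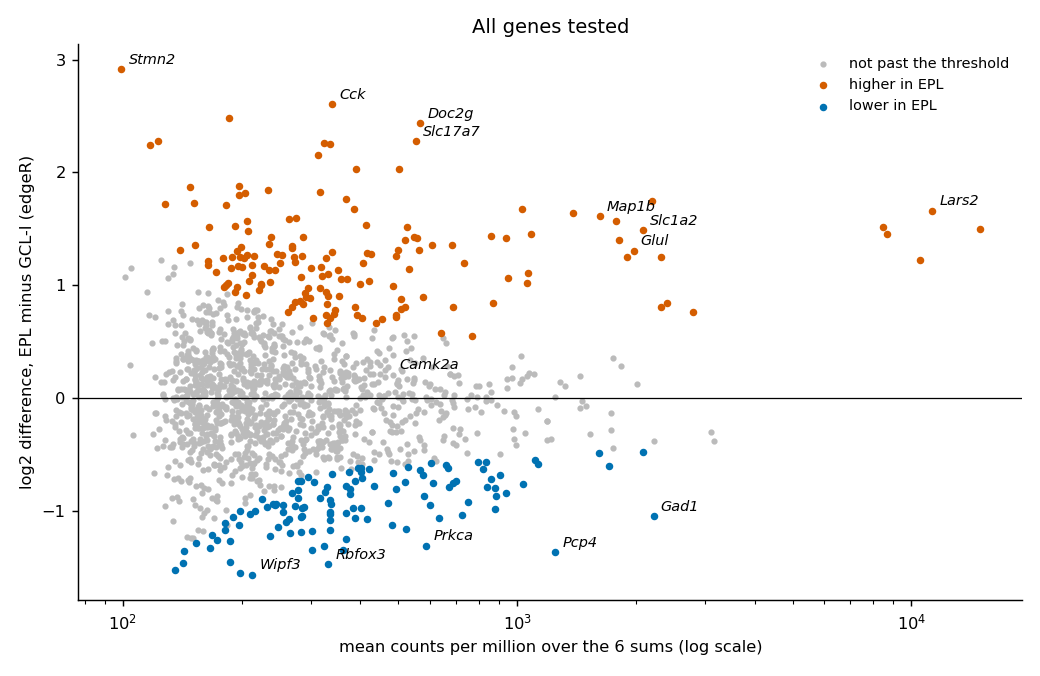
Each point is 1 of 1520 tested genes, with the mean CPM over the 6 sums on the horizontal log axis and the log2 difference EPL minus GCL-I on the vertical axis. Orange points are the 159 genes called higher in the EPL and blue points the 115 called lower; the points farthest from 0 lie at 2.91 (Stmn2) and -1.56 (Wipf3), and Camk2a lies near the line.

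The first 3 genes taken were a marker of inhibitory neurons, a marker of astrocytes and a dendritic mRNA. Gad1 (chromosome 2, 70553072 to 70602014, mm10), which encodes a GABA-synthesizing enzyme, stood at 1926, 1303 and 846 CPM in the EPL and at 3892, 2738 and 2599 in the GCL-I. Every EPL sum was below every GCL-I sum, and the mean was 2.26 times as high in the GCL-I. The log2 difference was -1.05 ± 0.17 (SE, 3 sections, adjusted p = 1.03e-07). Slc1a2 (chromosome 2, 102658659 to 102790784), the main astrocyte glutamate transporter, stood at 578, 4455 and 3871 CPM in the EPL and at 331, 1798 and 1491 in the GCL-I. Section 1 was low in both layers, so the layers overlapped, yet the EPL was higher within each section, by 1.75, 2.48 and 2.60 times. The log2 difference was 1.49 ± 0.20 (adjusted p = 2.39e-11). Without section 3 neither gene passed (adjusted p = 0.132 for Gad1 and 0.0695 for Slc1a2), while the log2 differences were -0.88 and 1.38. Over all alternatives the adjusted p ranged from 6.37e-18 to 0.428 for Gad1 and from 3.82e-49 to 0.582 for Slc1a2, the highest value in each case coming from the fit that ignores which layers share a section.

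Camk2a, which encodes the alpha subunit of calcium/calmodulin-dependent protein kinase II, stood at 193, 679 and 567 CPM in the EPL and at 331, 511 and 618 in the GCL-I. It was higher in the EPL in section 2 and lower in sections 1 and 3, and the layers overlapped. The log2 difference was 0.21 ± 0.23 (95% interval -0.24 to 0.66, adjusted p = 0.633), and -0.07 with library sizes alone. A difference in Camk2a was thus not detectable at this depth, where section 1 held 14 and 17 Camk2a counts in the 2 layers. The gene of the other forebrain subunit, Camk2b, stood at 413, 416 and 303 CPM in the EPL and at 642, 808 and 1022 in the GCL-I, with no overlap. Its log2 difference was -0.95 ± 0.21 (adjusted p = 1.89e-04), and 0.213 was its adjusted p without section 3.

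**Figure D2:**
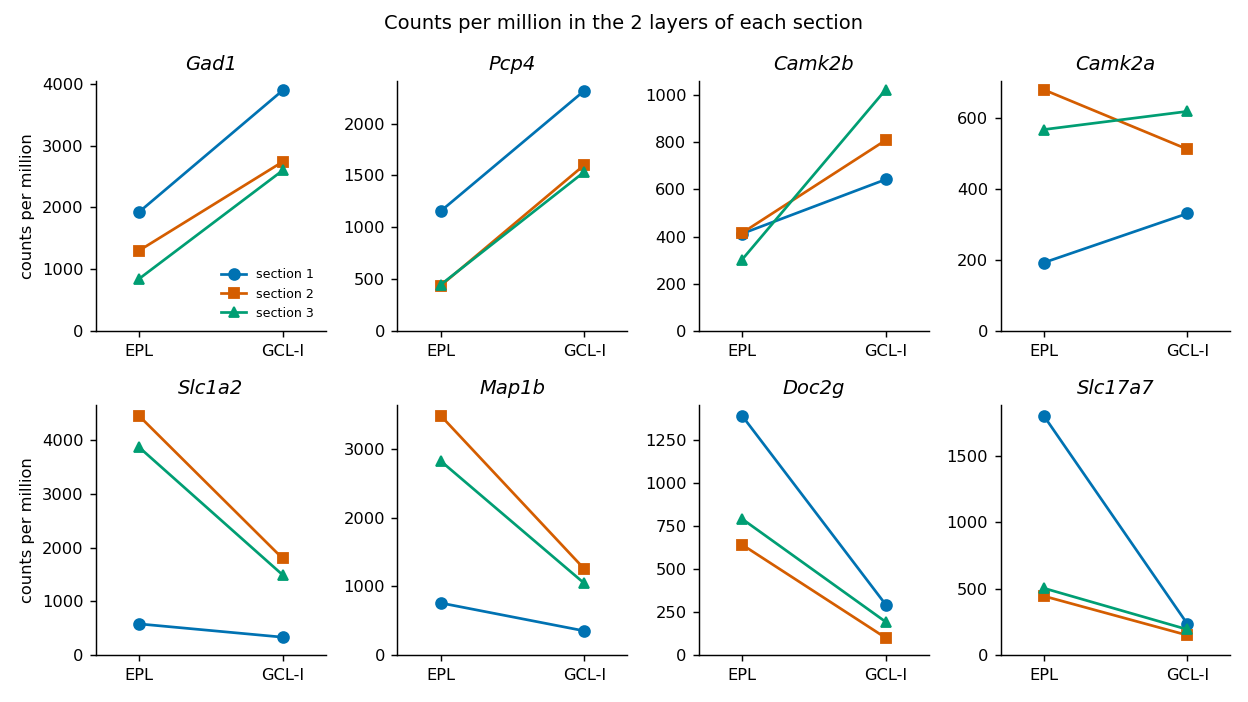
CPM of 8 genes in the EPL and GCL-I sums, with a line joining the 2 layers of each section and a separate vertical axis from 0 for each gene. The lines of Gad1, Pcp4 and Camk2b rise toward the GCL-I in each section and those of Slc1a2, Map1b, Doc2g and Slc17a7 fall, while those of Camk2a do not share a direction.

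Projection neuron transcripts were among those with the largest differences. Of 16 mitral and tufted cell genes, 10 were tested and 9 were higher in the EPL (6 by DESeq2), with a median log2 difference of 1.64 beside 0.01 for all genes tested. Doc2g, a C2-domain gene expressed by mitral and tufted cells (chromosome 19, 4003313 to 4007005), stood at 1389, 640 and 790 CPM in the EPL and at 292, 99.0 and 192 in the GCL-I. Cck, the neuropeptide cholecystokinin and a product of tufted cells (chromosome 9, 121489824 to 121495694), stood at 880, 367 and 471 CPM against 156, 33.0 and 128. Slc17a7, the vesicular glutamate transporter VGLUT1, stood at 1802, 443 and 503 CPM against 234, 148 and 192. None of the 3 genes overlapped between layers. Their log2 differences were 2.43 ± 0.26, 2.60 ± 0.31 and 2.28 ± 0.27, with adjusted p of 4.87e-17, 5.13e-14 and 1.69e-14.

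Cdhr1, a protocadherin of mitral and tufted cells, stood at 922, 432 and 391 CPM in the EPL and at 234, 231 and 107 in the GCL-I (log2 difference 1.68, adjusted p = 3.16e-08). Reln, the secreted glycoprotein reelin, stood at 537, 334 and 335 CPM against 156, 115 and 170 (1.60, adjusted p = 2.91e-06). Neither gene overlapped between layers. The 5 genes Doc2g, Cck, Slc17a7, Cdhr1 and Reln kept their calls whichever section was left out. The other called members were Rab3b (log2 difference 1.80), Nefl (1.48), Uchl1 (1.36) and Trnp1 (1.14). Uchl1 and Trnp1 lost the call without section 1 (adjusted p = 0.217 and 0.0839), Nefl and Uchl1 without section 2 (0.0648 and 0.055), and Rab3b, Nefl and Trnp1 without section 3 (0.0993, 0.16 and 0.142). Slc17a6, the gene of VGLUT2, had 1, 4 and 2 counts in the EPL and 0 in each GCL-I sum, where 3 counts would be 58.4, 49.5 and 63.9 CPM. The summed level of the list was 3.71, 2.68 and 2.21 times as high in the EPL as in the GCL-I.

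Astrocyte transcripts were higher in the EPL as a group. Of 24 genes, 19 were tested, 17 were higher (13 with library sizes alone, 9 by DESeq2) and none was lower, with a median log2 difference of 1.09. By CPM, 15 of the 19 were higher in 3 of 3 sections, beside 15.1% of all genes tested. The summed level of the list was 1.66, 2.04 and 1.88 times as high in the EPL. Slc1a3, the glutamate transporter GLAST, stood at 440, 1916 and 2211 CPM in the EPL and at 175, 808 and 958 in the GCL-I. Section 1 was low in both layers, so these overlapped. Slc6a11, the GABA transporter GAT3, stood at 1128, 1248 and 1301 CPM against 584, 577 and 852, with no overlap. Both genes (log2 differences 1.46 and 1.07) kept their calls whichever section was left out.

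Outside the astrocyte list, the glial genes Kcnj10 and Ptprz1 were named for their large differences in these data. Kcnj10, the potassium channel Kir4.1 of glia, stood at 165, 870 and 798 CPM in the EPL and at 97.3, 264 and 149 in the GCL-I (log2 difference 2.03, adjusted p = 6.47e-11). Ptprz1, a receptor tyrosine phosphatase of glial cells, stood at 68.8, 1171 and 1101 CPM against 58.4, 313 and 298 (2.03, adjusted p = 5.34e-12). In both genes section 1 was far lower than the others, so the layers overlapped, and both kept their calls whichever section was left out. The Ptprz1 value of the GCL-I in section 1 was only 3 counts, so section 1 says little about the direction of Ptprz1. Glul, glutamine synthetase, did not overlap, at 1953, 3153 and 3001 CPM against 1051, 1171 and 1512 (1.31, adjusted p = 3.23e-10). Sparcl1, Apoe and Cpe had log2 differences of 1.25, 0.84 and 0.76. Of the 17 called astrocyte genes, 1 lost the call without section 1 (adjusted p = 0.0675), 9 without section 2 (0.0631 to 0.447) and 14 without section 3 (0.0527 to 0.389).

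Transcripts of blood, vessels and other glia were read beside the astrocyte genes. Of 5 blood genes, the 2 tested were both higher in the EPL: the hemoglobin gene Hba-a2 stood at 523, 443 and 822 CPM against 195, 198 and 298, and Hbb-bs at 509, 651 and 950 against 214, 379 and 490. Both hemoglobin genes have near-identical copies, so the split of reads among copies is uncertain. The summed blood level was 2.56, 1.85 and 2.21 times as high in the EPL, from 1293 to 2259 CPM against 506 to 1022. Hbb-bs lost the call without section 3 (adjusted p = 0.0695), and Hba-a2 kept it in each such fit. The summed microglial list was 1.26, 1.61 and 1.70 times as high, with Cst3 the 1 member tested, and Tmem119 at 0 in both layers. Most of that sum was Cst3: 3274, 2551 and 2562 of 3618, 2928 and 2865 CPM in the EPL. In the GCL-I it was 2530, 1468 and 1491 of 2880, 1815 and 1683 CPM, so the ratios mainly restate Cst3. Cst3, also made by astrocytes, was higher in the EPL (log2 difference 0.81, adjusted p = 1.35e-04), but not without section 2 (0.123) or section 3 (0.243). The endothelial and mural list, with 1 tested gene of 11 and 0 called by edgeR, by DESeq2 or at an unadjusted p under 0.05, was 1.21, 1.56 and 1.30 times as high. In the myelin list, Car2 alone of 5 tested genes passed (1.17), and not with section 2 or 3 left out (0.366 and 0.224), while Mbp had -0.36 (adjusted p = 0.182). Of the olfactory nerve genes, Fabp7 and Apod, both also expressed by other glia, were higher (1.05 and 0.85), and neither passed without section 3 (0.0841 and 0.277). The part of these cell types in the neuronal differences was not tested.

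Granule cell and GABA genes mostly went the other way. Of 18 genes, 14 were tested, 9 were lower in the EPL and 1 was higher (2 and 1 by DESeq2), with a median log2 difference of -0.85, and the summed level of the list in the EPL was 0.59, 0.50 and 0.52 of that in the GCL-I. Pcp4, a small calmodulin-binding protein of granule cells (chromosome 16, 96467606 to 96525793), stood at 1156, 438 and 447 CPM in the EPL and at 2316, 1600 and 1534 in the GCL-I, with no overlap (log2 difference -1.36 ± 0.18, adjusted p = 2.68e-11). Slc32a1, the vesicular GABA transporter, stood at 660, 159 and 160 CPM against 915, 544 and 383 (-0.93, adjusted p = 8.35e-04). Gad2, the second GABA-synthesizing enzyme, stood at 303, 345 and 519 CPM against 467, 709 and 831 (-0.61, adjusted p = 0.0355). Slc32a1 and Gad2 overlapped between layers although each was lower in the EPL within each section. The synaptic vesicle protein Synpr, the peptide precursor Penk and the G protein subunit Gng4 had log2 differences of -0.92, -1.01 and -0.78. Pcp4 kept its call whichever section was left out. Of the 10 called genes of the list, Penk lost the call without section 1 (adjusted p = 0.0651), 6 lost it without section 2 (0.122 to 0.433) and 8 without section 3 (0.0527 to 0.221).

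Transcription factors of bulb interneurons had members lower in the EPL and none higher. Of 20 genes, 11 were tested and 4 were lower by edgeR (6 at an unadjusted p under 0.05, 0 by DESeq2), with a median log2 difference of -0.55 and each tested member below 0. Of the tested members, Meis2, Pbx3, Tshz1, Sp8, Dlx1 and Dlx5 are also in the granule cell list, so the lists are not separate evidence. Meis2, a homeodomain factor of granule cells, stood at 316, 695 and 678 CPM in the EPL and at 370, 1683 and 1555 in the GCL-I (-0.87, adjusted p = 1.99e-04). Pbx3 and Bcl11a, also factors of these neurons, had -0.84 and -1.05. All 4 called genes lost the call without section 2 (adjusted p = 0.142 to 0.279) and without section 3 (0.185 to 0.395). Outside the lists, the splicing factor Rbfox3, known as the neuronal nuclear antigen NeuN, stood at 261, 115 and 120 CPM against 778, 462 and 256 (-1.47, adjusted p = 1.71e-06). Section 1 of the EPL overlapped section 3 of the GCL-I, yet the EPL was lower within each section, and the call held whichever section was left out. The external granule cell layer, also a layer of somata, stood at 92.1, 283 and 83.3 CPM, from sums of 10853 to 24007 counts. Of the spots of that layer, 95.7% to 99.995% lay within 5 array positions of another layer. Its Rbfox3 mean was 153 CPM beside 165 in the EPL, so by these means the EPL was not lower than that layer.

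**Figure D3:**
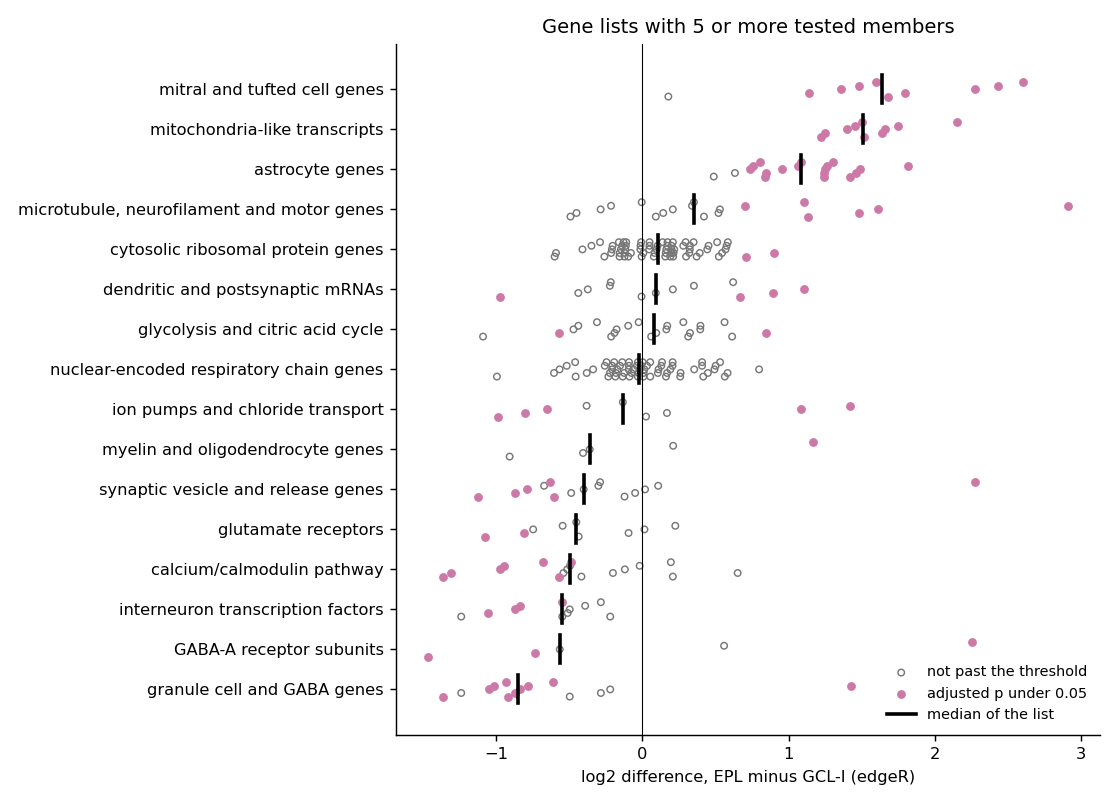
Log2 difference EPL minus GCL-I of the tested members of each gene list with 5 or more tested members, filled where the adjusted p is under 0.05, with the list median as a bar. The mitral and tufted, mitochondria-like and astrocyte lists have medians of 1.64, 1.51 and 1.09, and the granule cell and GABA list has the lowest median, -0.85.

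Dendritic and postsynaptic mRNAs did not move as a group. Of 20 genes, 13 were tested, 3 were higher in the EPL and 1 was lower (1 and 0 by DESeq2), and the median log2 difference was 0.09, or -0.12 with library sizes alone. Shank1, a postsynaptic scaffold whose mRNA is known in dendrites (chromosome 7, 44310253 to 44360572), stood at 413, 870 and 846 CPM in the EPL and at 292, 445 and 596 in the GCL-I (0.89 ± 0.23, adjusted p = 9.34e-04). Map1a, a microtubule protein of dendrites, stood at 674, 1883 and 1604 CPM against 545, 676 and 1001 (1.11 ± 0.20, adjusted p = 1.13e-06). Both genes were higher in the EPL within each section, and both overlapped between layers. Ppp1r9b, the spine protein spinophilin, had 0.67 (adjusted p = 0.0485). With library sizes alone, neither Shank1 nor Ppp1r9b passed. Nrgn, the postsynaptic calmodulin-binding protein neurogranin, was the member lower in the EPL, at 468, 170 and 128 CPM against 584, 445 and 511 (-0.97, adjusted p = 8.35e-04). Map2, the classic dendritic microtubule protein, had 0.35 ± 0.18 (adjusted p = 0.196), and passed without section 1 (1.35e-04). None of the 4 called genes passed without section 2 (0.103 to 0.197) or without section 3 (0.094 to 0.399), and Ppp1r9b did not pass without section 1 either (0.194).

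The ratio of 2 genes within one sum does not depend on the scaling of the sums, nor does the difference of that ratio between layers depend on transcript length. The ratio of Camk2a to Gad1 counts was 0.100, 0.521 and 0.670 in the EPL and 0.085, 0.187 and 0.238 in the GCL-I. The log2 differences of this ratio were 0.23, 1.48 and 1.50, or 1.07 ± 0.72 (SD, n = 3), with the EPL higher in 3 of 3 sections. In section 1 the difference was smaller than its own counting error, a standard error of 0.54. For Shank1 to Gad1 the log2 differences were 1.51, 2.04 and 2.12, again with the EPL higher in each section. Gad1 itself was lower in the EPL in each section (-1.05 by edgeR), so a gene that does not differ also gives a positive value. Camk2a alone had 0.21 (edgeR adjusted p = 0.633) and Shank1 alone 0.89. The Camk2a ratio therefore does not show that Camk2a was higher in the EPL. Gad2 to Gad1 had a mean of 0.45 ± 0.46 and Pcp4 to Gad1 of -0.32 ± 0.43, and the mean of Nrgn to Gad1 was smaller than its SD of 0.61.

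Genes of one family were compared in the same way. The mean log2 difference was 1.30 ± 0.29 for Map1b to Map2 and 0.78 ± 0.50 for Map1a to Map2, each with the EPL higher in 3 of 3 sections. Camk2a to Camk2b had 0.95 ± 0.96 and was higher in the EPL in 2 of 3 sections. Of the 8 pairs given, 5 were higher in the EPL in 3 of 3 sections, and each of these had p = 0.25 by an exact two-sided sign-flip test, the smallest value that 3 sections allow (0.333 after Benjamini-Hochberg adjustment over the 12 pairs computed). The other 3 pairs, Camk2a to Camk2b, Pcp4 to Gad1 and Nrgn to Gad1, had p of 0.5, 0.5 and 1.

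**Figure D4:**
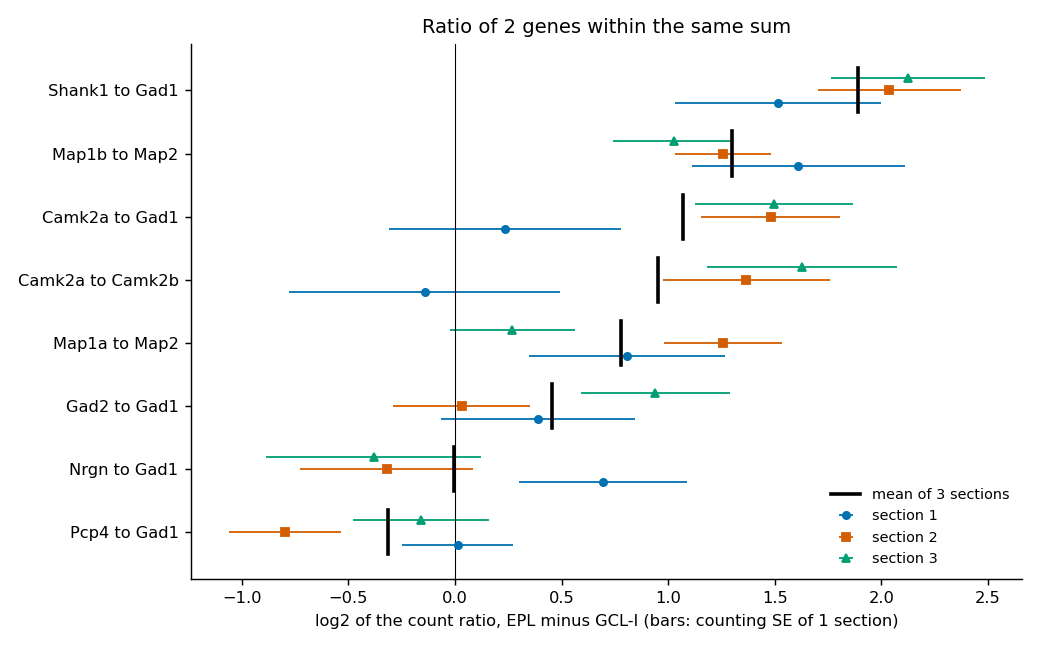
Log2 difference between EPL and GCL-I in the ratio of 2 genes, for 8 pairs, with 1 point per section, horizontal bars for the counting standard error of that section and a black bar for the mean. Shank1 to Gad1 lies farthest right, with a mean of 1.89, and Pcp4 to Gad1 lies left of 0 at -0.32.

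Some calcium/calmodulin genes were lower in the EPL. Of 20 genes, 17 were tested, 7 were lower (2 by DESeq2) and none was higher, with a median log2 difference of -0.49. By CPM, which has no TMM scaling, 13 of the 17 were lower in 3 of 3 sections, beside 30.9% of all genes tested. The called members were Pcp4, Camk2b and Nrgn, described above, with the calcium-activated tyrosine kinase Ptk2b (-1.31), the calcineurin catalytic subunit Ppp3ca (-0.57), neurochondrin Ncdn (-0.68) and the calmodulin gene Calm2 (-0.48). Calm2 stood at 1651, 1051 and 1125 CPM in the EPL and at 2043, 1996 and 1832 in the GCL-I, with no overlap. Prkca, the protein kinase C alpha gene outside the list, stood at 371, 279 and 295 CPM against 856, 957 and 767, with no overlap (-1.31, adjusted p = 1.06e-07), and kept its call whichever section was left out. Apart from Pcp4, the members of the list did not all keep theirs: 4 lost it without section 2 (adjusted p = 0.116 to 0.705) and 6 without section 3 (0.111 to 0.432).

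Among GABA-A receptor subunits, 5 of 12 were tested, 1 was higher and 2 were lower in the EPL (1 and 0 by DESeq2). Gabra5, the alpha5 subunit, stood at 55.0, 76.6 and 71.8 CPM in the EPL and at 195, 264 and 192 in the GCL-I, with no overlap (-1.46 ± 0.49, adjusted p = 0.0215). It lost the call without section 2 (adjusted p = 0.127) and without section 3 (0.0955).

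Of 19 glutamate receptor genes, 9 were tested, 2 were lower (0 by DESeq2, 3 at an unadjusted p under 0.05) and none was higher in the EPL, with a median log2 difference of -0.45. Gria3, an AMPA receptor subunit, stood at 261, 208 and 128 CPM in the EPL and at 525, 478 and 405 in the GCL-I, with no overlap (-1.08, adjusted p = 3.69e-04). Grin1, the obligatory NMDA receptor subunit, had -0.81 (adjusted p = 0.00448), while the AMPA receptor subunit Gria2 had 0.01 (0.976) and Gria1 0.23 (0.629). Gria3 lost its call without section 3 (adjusted p = 0.094), and Grin1 without section 2 (0.257) and section 3 (0.318).

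Of 16 synaptic vesicle and release genes, 15 were tested, 5 were lower and 1 was higher in the EPL, with a median log2 difference of -0.40. DESeq2 called 1 lower and 0 higher, and against the external granule cell layer edgeR called 1 lower and 0 higher of 14 tested. Syn2, a synapsin that tethers vesicles, stood at 550, 181 and 160 CPM in the EPL and at 798, 495 and 703 in the GCL-I (-1.12, adjusted p = 2.60e-05). Syn1, Napb and Vamp2, which act in vesicle tethering and fusion, had -0.87, -0.79 and -0.60. Sv2b, a vesicle glycoprotein, went the other way without overlap, at 289, 153 and 160 CPM against 58.4, 33.0 and 42.6 (2.28 ± 0.56, adjusted p = 7.33e-04). These GCL-I values were at or below the level of 3 counts (58.4, 49.5 and 63.9 CPM). Sv2b thus met the minimum count through the EPL, and the size of its difference is imprecise. Snap25, a member of the fusion complex, had -0.30 (adjusted p = 0.27). All 5 lower genes lost the call without section 3 (adjusted p = 0.132 to 0.425) and 4 of the 6 called genes without section 2 (0.0955 to 0.208); Sv2b was not tested without section 2 and held without section 3 (0.046).

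Microtubule, neurofilament and motor genes had 6 members higher in the EPL and none lower, of 19 tested among 23, with a median log2 difference of 0.35. Over all genes tested, 10.5% were called higher and 7.57% lower. With library sizes alone 5 members were higher and 1 was lower, and DESeq2 called 2 higher. Among the called members, Nefl is also in the mitral and tufted list and Map1a in the dendritic list. Map1b, a microtubule protein of growing and mature neurites (chromosome 13, 99421446 to 99516540), stood at 757, 3487 and 2825 CPM in the EPL and at 350, 1254 and 1044 in the GCL-I. The layers overlapped because section 1 was low in both, but the EPL was 2.16, 2.78 and 2.71 times as high within sections. Its log2 difference was 1.61 ± 0.20 (adjusted p = 5.03e-13), and the call held whichever section was left out. Stmn2, the neuronal stathmin that destabilizes microtubules, stood at 151, 170 and 208 CPM against 0, 66.0 and 0, the largest fitted log2 difference of all called genes at 2.91 ± 0.67. With 0 counts in 2 of 3 GCL-I sums this estimate is imprecise. Kif1b, a motor that carries vesicles and mitochondria, had 1.13, and the dynein light chain Dynll2 had 0.70 and did not pass with library sizes alone. Without section 3, 5 of the 6 lost the call (adjusted p = 0.094 to 0.21), and without section 2, 4 did (0.0621 to 0.277) and Stmn2 was not tested.

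Ion pump genes changed in both directions. Of 9 tested, 2 were higher and 3 were lower in the EPL (1 and 1 by DESeq2). Atp1b2, a pump subunit gene of astrocytes, stood at 316, 509 and 423 CPM in the EPL and at 175, 264 and 234 in the GCL-I, with no overlap (1.09 ± 0.27, adjusted p = 6.22e-04). The plasma membrane calcium pumps Atp2b1 and Atp2b2 were lower (-0.80 and -0.65), and the beta1 subunit Atp1b1 had -0.38 (0.132). Atp1b2, Atp2b1 and Atp2b2 lost the call without section 2 (adjusted p = 0.0998, 0.0564 and 0.277) and without section 3 (0.079, 0.157 and 0.326).

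Housekeeping groups showed few differences. Of 22 tested genes of glycolysis and the citric acid cycle, the astrocyte aldolase Aldoc was higher (0.84) and the neuronal enolase Eno2 was lower (-0.57). Of 67 tested cytosolic ribosomal protein genes, Rpl6 and Rpl7 were higher (0.90 and 0.71). Of 63 tested nuclear-encoded genes of the respiratory chain, 0 passed by edgeR and 0 by DESeq2, with 2 higher and 4 lower at an unadjusted p under 0.05, and Atp5b, Atp5a1 and Cox4i1, those with the most counts, had -0.09, 0.01 and -0.21. The medians of the 3 lists were 0.08, 0.10 and -0.02, and with library sizes alone -0.09, -0.09 and -0.22. Aldoc, Rpl6 and Rpl7 did not pass with library sizes alone, and none of the 4 called genes passed without section 3 (adjusted p = 0.0991 to 0.278) or section 2 (0.129 to 0.57), nor Rpl7 without section 1 (0.0901).

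By contrast, transcripts that resemble mitochondrial RNA were higher in the EPL without exception among those tested. These entries are mostly predicted genes in nuclear copies of mitochondrial DNA, so the place where their reads arose is uncertain. Of 12 entries, 10 were tested and all 10 were higher, with a median log2 difference of 1.51, and the summed level was 1.92, 2.65 and 2.53 times as high in the EPL. Gm10925, the entry with the most counts, stood at 8116, 26415 and 30160 CPM in the EPL and at 4028, 9551 and 11012 in the GCL-I. Lars2, the nuclear gene of the mitochondrial leucyl-tRNA synthetase, was counted in this list but is not such a copy. It stood at 82.5, 27849 and 21205 CPM against 0, 9584 and 9053. Section 1 thus had almost none of it in either layer, unlike Gm10925. Whether the Lars2 counts came from the synthetase mRNA was not tested. Without section 3, 6 of the 10 lost the call (adjusted p = 0.0741 to 0.284) and 1 was not tested, and without section 2, 4 did (0.0629 to 0.162). When these entries and 4 entries that resemble ribosomal RNA or a microRNA gene were left out of the sums, 259 genes were called, 144 higher and 115 lower, of which 138 and 109 were among the 159 and 115.

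The microRNA gene Mir6236 belonged to those 4 entries and was chosen after its values were seen. It stood at 0, 4143 and 3488 CPM in the EPL and at 19.5, 1567 and 1448 in the GCL-I (1.57, adjusted p = 3.00e-11, and 0.0704 without section 3). It is shown because it is the one entry whose product is a short defined RNA, at bases 110281353 to 110281371 of the plus strand of chromosome 9 in GRCm38.p6. The mature sequence, from RefSeq, is 19 bases long, with bases 2 to 8, the seed, in capitals.
mmu-miR-6236: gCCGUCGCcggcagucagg
The arrays captured poly(A) RNA, and whether any of these counts came from the mature microRNA was not tested.

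Of 3 tested immediate early genes and 3 tested neuroblast genes, 1 each was lower in the EPL. Egr1, an activity-induced transcription factor, stood at 880, 159 and 200 CPM in the EPL and at 1420, 495 and 639 in the GCL-I (-1.06, adjusted p = 4.14e-05, and 0.104 without section 3). The other tested members, Fos and Nr4a1, had -1.22 and -1.12 (0.0764 and 0.0724). Nrep, a gene of migrating neuroblasts, was lower (-1.35, adjusted p = 0.0277), and not without section 1 (0.0921) or section 3 (0.318), while Dcx, the neuroblast microtubule protein doublecortin, had -0.78 (0.0612). The lists of EPL interneurons (Calb2 0.22, Kcnc1 0.30) and of long noncoding RNAs (Snhg11 0.14, or -0.13 with library sizes alone) had no called gene by edgeR or DESeq2, and 0 at an unadjusted p under 0.05. Pvalb, the parvalbumin gene of many EPL interneurons, had too few counts to be tested, at 41.3, 0 and 0 CPM in the EPL and 38.9, 16.5 and 0 in the GCL-I.

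The remaining genes with the largest differences came from no fixed list. Higher in the EPL were Kcna2, a voltage-gated potassium channel of axons and dendrites (151, 416 and 343 CPM against 19.5, 16.5 and 170, log2 difference 2.48), the lipid-binding protein gene Osbpl1a (2.24), the actin nucleator Spire1 (1.88) and the Rac exchange factor Prex1 (1.87). In section 1 their GCL-I values (19.5, 19.5, 38.9 and 19.5 CPM) were below the level of 3 counts, 58.4 CPM. In section 2 those of Kcna2, Osbpl1a and Prex1 (16.5, 33.0 and 33.0 CPM) were also below that level, 49.5 CPM. The sizes of these differences are therefore imprecise. Kcna2 lost the call without section 2 (adjusted p = 0.0567), as did Spire1 (0.0863) and Prex1 (0.0968), while Osbpl1a was not tested without section 2, nor Spire1 and Prex1 without section 3. Lower in the EPL were Wipf3 (-1.56), Gm13889 (-1.55), R3hdm4 (-1.45), Icam5 (-1.35), Ube2ql1 (-1.34) and Ano3 (-1.32). Icam5, an adhesion protein of neuronal dendrites known as telencephalin, stood at 344, 142 and 95.8 CPM in the EPL and at 623, 363 and 596 in the GCL-I, with no overlap. Of these 6 genes, Ube2ql1 kept its call whichever section was left out, and the other 5 lost it without section 3 (adjusted p = 0.0695 to 0.134), and R3hdm4 and Ano3 also without section 2 (0.147 and 0.303).

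The layers that lie between the 2 were described without a test. Spots within 5 array positions of another layer made up 94.8% to 98.8% of the mitral cell layer. They made up 87.1% to 94.9% of the internal plexiform layer and 95.7% to 99.995% of the external granule cell layer. These layers were thus hardly sampled away from a border, and their values may be mixed with those of neighbouring layers. Of the 12 genes with the largest differences toward the EPL, 7 had their highest mean over 5 layers in the EPL and 5 in the mitral cell layer (M/T), and of the 12 in the other direction 10 were highest in the GCL-I, 1 in the external granule cell layer (GCL-E) and 1 in the internal plexiform layer (IPL). Gad1 means over 3 sections stood at 1358, 1980, 2758, 2779 and 3076 CPM from EPL through M/T, IPL and GCL-E to GCL-I, with SDs of 542, 314, 1208, 269 and 710, and the SD ranges of neighbouring layers overlapped. Map1b had similar means in EPL and M/T (2356 ± 1424 and 2207 ± 1582) and lower ones in the IPL, GCL-E and GCL-I (893, 703 and 883). Slc1a2 was lower in the M/T than in the EPL in sections 2 and 3 (1840 and 1843 CPM against 4455 and 3871) and nearly equal in section 1 (571 against 578). Camk2a means lay between 342 and 487 CPM in the 5 layers, with SDs from 89.0 to 262.

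**Figure D5:**
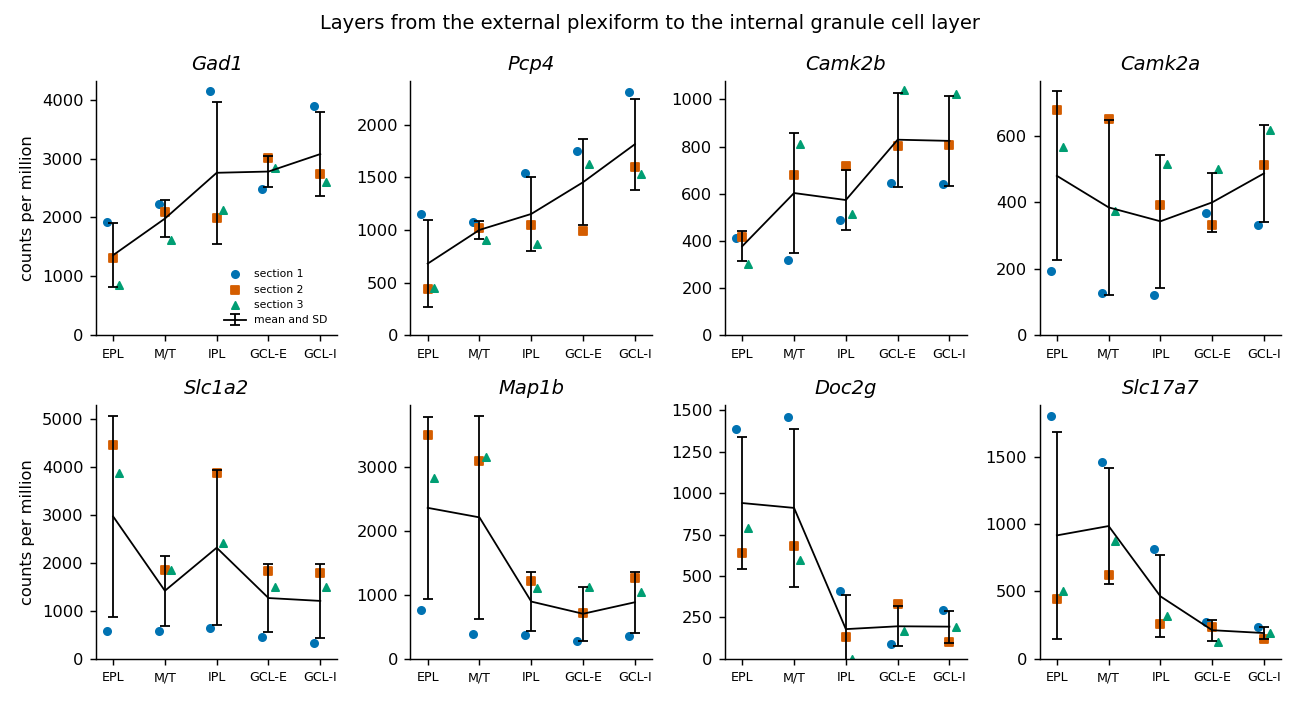
CPM of 8 genes in 5 layers from the EPL to the GCL-I, with 1 point per section and a line through the means with SD bars. Gad1 and Pcp4 means climb from EPL to GCL-I, Doc2g, Map1b and Slc17a7 means are high in EPL and M/T and low inward, and Camk2a means stay between 342 and 487 CPM.

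With the external in place of the internal granule cell layer, 981 genes were tested and 104 called, 74 higher and 30 lower in the EPL. Nearly all spots of that external layer (95.7% to 99.995%) lay within 5 array positions of another layer. Gad1, Slc1a2 and Doc2g kept direction and call in that comparison, with log2 differences of -0.92, 1.51 and 2.22. Syn1 had 0.062 there (adjusted p = 0.948) in place of -0.87. Without spots within 5 array positions of another layer, 787 genes were tested and 100 called, and the log2 differences of Gad1 and Slc1a2 were -1.13 and 1.82.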

How the data were processed

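High-density spatial transcriptomics was run on 3 sections of mouse main olfactory bulb, each with 9 named layers. The authors deposited raw transcript counts per spot and gene (whole numbers, not normalized) and a table with the position and layer of each spot. The submitters' processing notes name mm10. Aligner, counter, strand use and molecular identifiers are not given in the sources used here, and antisense and overlapping genes cannot be told apart.

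Spots were joined to layers by pixel position (100% of entries). Counts without a gene name (0.0325%, 0.0764% and 0.0801%) were left out. Of 19621 symbols, 99.8% were found in GENCODE M21, the source of gene coordinates. The 6 layer sums, of 46947 to 182699 counts, were tested with edgeR 4.0.16 (quasi-likelihood, R 4.3.3): layer with section as a block, TMM, filterByExpr at a minimum count of 10, Benjamini-Hochberg, threshold 0.05. An SE is the log2 difference over the root of F, and 95% intervals and floors of 3 counts cover this model or counting error only. The 2 layers of a section are one piece of tissue. Their deviations from layer means correlated at 0.781, 0.581 and 0.474 within sections 1, 2 and 3. Between sections 2 and 3 the correlations were 0.524 and 0.549, and those of section 1 with another section were -0.724 to -0.559. These values thus mainly set section 1 apart from sections 2 and 3. In data simulated for this comparison (1314 genes, 158 of them changed), 63.9% of 2-fold and 100% of 4-fold changes were recovered. Of the calls in these simulated data, 4.48% were false. The simulation used a dispersion of 0.018, and these rates describe the simulated data alone. In the real sections, log2 differences between layers correlated at 0.366 (sections 1 and 2), 0.359 (1 and 3) and 0.549 (2 and 3). The false call rate of the real comparison was not tested.

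Named genes were Camk2a, Slc1a2 and Gad1, the 12 with the largest log2 difference per direction (called, same way in 3 sections, at least 60 counts), and per list up to 8 called members and the 3 with the most counts. Others named are Slc17a6, Tmem119, Pvalb and Mir6236, chosen after their values were seen, and Rab3b, the remaining called member of its list. Some genes that the rule takes are left out here. The members and the 24 lists were chosen with earlier results of these data known. DESeq2 1.42.0 was among 13 alternatives, and 2 more were added after seeing the data. Figures used matplotlib 3.10.9.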

Additional observations from a re-analysis of the deposited data

How the results depend on the processing

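The 274 calls (159 higher and 115 lower in the EPL) became 267 with RLE scaling, 259 with library sizes alone (99 higher), 237 without a filter (25 lower), 287 with all 9 layers fitted and 263 when joined by spot name. They fell to 89 with a minimum count of 30 (49 and 40, of 263 genes tested), 68 by DESeq2 (57 and 11), 100 without boundary spots (72 and 28) and 104 against the GCL-E (74 and 30). With no replicate block, which ignores the pairing of layers by section, edgeR called 0 genes (0 higher, 0 lower), with 156 at an unadjusted p under 0.05. Leaving out a section gave 34 to 349 calls, 30 to 201 higher and 4 to 148 lower. Of the alternatives added after seeing the data, thinning the EPL sums to the GCL-I totals gave 186 calls (116 and 70), and leaving out mitochondria-like and rRNA-like entries gave 259. No called gene was called in the opposite direction under any of these settings. Over 1231 values of the 89 named genes that were called, 873 kept direction and call, 357 kept direction and lost the call, and 1 changed sign: Syn1, 0.062 against the GCL-E. Over 442 values of the 31 genes not called, 17 passed and 43, in 18 genes, changed sign, among them Camk2a (-0.07 with library sizes alone, -0.15 without section 2). The Camk2a to Gad1 log2 difference was 0.86 to 1.49 with a section left out, and 1.07 as reported. Section 3 had the fewest GCL-I counts (46947). The cause of the changes was not tested.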
